A study of Mus musculus with 4 samples.

Results

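The genes described here belong to families of enzymes that write and erase chemical marks on histones. Their RNA was measured in FACS-isolated bone marrow monocytes of C57BL/6 mice of wild-type genotype. They were chosen by symbol alone, from 6 families: lysine demethylases (Kdm), lysine methyltransferases (Kmt), SET domain proteins (Setd), protein arginine methyltransferases (Prmt), lysine acetyltransferases (Kat) and zinc-dependent deacetylases (Hdac). Kdm5c, Kdm5d and Kdm6a were left out by the rule. It found 58 of the 31017 gene symbols in the count tables, of which 57 are genes of these enzyme families. The other 1, Kdm6bos, is an antisense transcript at Kdm6b. Some members are known for targets other than histones or for binding a mark, as given below. The only comparison in the design is between 2 libraries from mice aged 18 months (aged) and 2 from mice aged 3 months (young). All libraries carry the tag atherosclerosis as the disease, and the labels state no treatment, number of animals or diet. Since no label ties the libraries of an age to different mice, the p-values reflect only how far these libraries vary, and that variation may be technical. In bulk RNA, fewer cells of a type cannot be told apart from less RNA per cell.

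Histone tails carry methyl and acetyl groups on lysine and methyl groups on arginine. Acetyltransferases add acetyl groups, which open chromatin and are read by bromodomain proteins, and deacetylases remove them within corepressor complexes. Methyl marks act by position: the KMT2 and SETD1 enzymes mark promoters and enhancers within COMPASS-type complexes, SETD2 marks the bodies of transcribed genes, and KMT5 enzymes mark histone H4 for chromosome compaction. In monocytes and macrophages these enzymes are known for setting which inflammatory genes can be induced, and Kdm6b and Hdac3 are much-studied examples.

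The libraries held 20159129 to 34278754 counts, and 12035 genes passed the filter on low counts. Values are given as CPM (counts scaled to the same library size in every library), and changes as log2 of aged over young with the standard error of the fit. Of the genes tested, 694 passed at an adjusted p under 0.05 (edgeR quasi-likelihood test with Benjamini-Hochberg adjustment), which is 5.77% of them. The monocyte markers Ly6c2, Ccr2, Csf1r, Lyz2 and Cd68 were present in all 4 libraries, with a summed level of 39100 to 41300 CPM. Csf1r and Cd68 were called higher and Ly6c2 lower in aged monocytes. Some markers of other cells and states moved with age, and not all members of a list moved in the same direction. The 5 neutrophil markers summed to 10200 and 10100 CPM at 18 months and 6960 and 7050 CPM at 3 months. Of these Ltf and Ngp were called higher, 2 of 5. Camp (0.16) and Mmp8 (0.17) were not called. Ly6g was lower, at 125 and 123 against 148 and 131 CPM (-0.17), and not called either. The 6 B cell markers summed to 1080 and 1070 against 717 and 725 CPM, with 5 of 6 called higher. The 8 immediate early genes summed to 2100 and 2150 against 1040 and 1000 CPM, with 7 of 8 called higher. The 5 cell cycle genes stood at 692 and 620 against 738 and 741 CPM with none called. The 5 dendritic cell markers summed to 202 and 205 against 171 and 179 CPM with 2 called higher. The 4 macrophage markers summed to 68.5 and 63.7 against 52.0 and 47.4 CPM with 1, C1qb, called higher. C1qa (0.41) had a positive change and Vcam1 (-0.23) and Cd163 (-0.44) negative ones, none of them called. The 4 erythroid markers (297 and 303 against 304 and 278 CPM) and the 4 markers of T and NK cells (37.0 and 33.9 against 39.4 and 46.2 CPM) had none called. None of the markers in these lists was at 0 in all libraries. Their part in the differences described below was not tested.

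Of the 58 members, 54 passed the filter on low counts. Prmt8 had 0 counts in every library, which allows up to 3 counts, or 0.0868 to 0.151 CPM. Hdac11, the class IV deacetylase, had 2 and 0 counts at 18 months and 5 and 1 at 3 months. Kdm4d had 5 and 3 against 6 and 1, and Kdm6bos 1 and 0 against 2 and 2. No age difference was detectable for these 4 at this depth.

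The levels per length spanned a wide range within each family, and the 4 most abundant members, in the same order in every library, were Kmt5a, Hdac1, Kdm7a and Kat7. Kmt5a, which adds the first methyl group to lysine of histone H4, was the most abundant member at 42.0 CPM per kb of exon (mean of the 4 libraries). It was followed by Hdac1, the class I deacetylase of several corepressor complexes, at 36, by Kdm7a, a demethylase of repressive marks, at 30.4, and by Kat7, the MYST acetyltransferase of replication origins, at 25.8 CPM per kb. Prmt1, the main arginine methyltransferase of mammalian cells, stood at 17.5 CPM per kb and Setd3, which methylates actin, at 16.4 CPM per kb. The least abundant tested members were Setd4 at 0.274, Kat6b at 0.518 and Setd1a at 0.682 CPM per kb. These per-length values divide by all exon bases of a gene in the annotation, so a gene with long unused exons is understated. So would be a gene whose reads in shared exons were not counted, and 51.8% of the Setd1a exon bases are shared with Gm49388. Summed per length, the tested members stood at 415 and 429 CPM per kb at 18 months and 419 and 423 at 3 months. The groups overlapped in that total. They did not overlap in summed CPM, at 2810 and 2850 against 2890 and 2940. As a share of all counts the members held 0.283% and 0.283% against 0.292% and 0.291%. Differences between these totals were not tested.

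**Figure D1:**
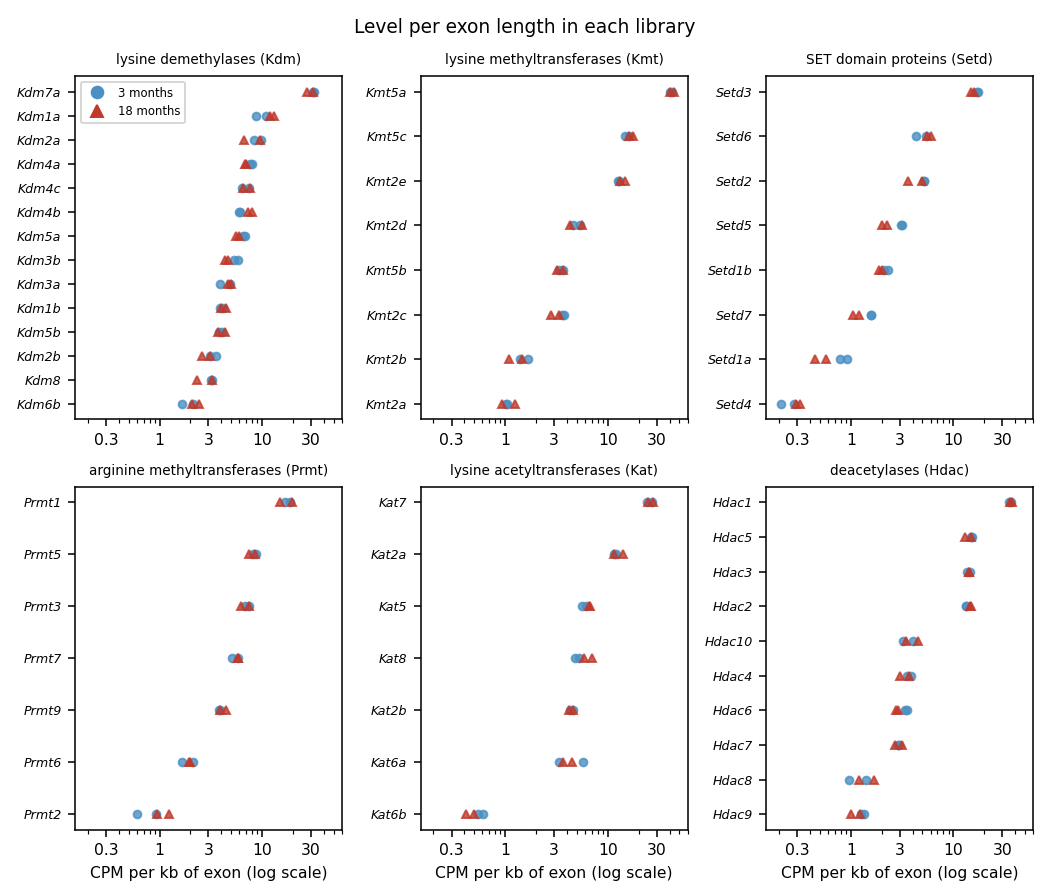
Level of each tested member in CPM per kb of exon (log scale) by family, with circles for the 2 libraries of mice aged 3 months and triangles for the 2 of mice aged 18 months. Kmt5a, Hdac1, Kdm7a, Kat7, Prmt1 and Setd3 lead their families, and for most genes the symbols of both ages lie close together compared with the distance between genes.

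Across the members, differences with age were few and evenly split in direction. Of the 54 tested, 1 was called lower in aged monocytes (1.85%, beside 2.89% called lower over all genes tested) and 0 were called higher (beside 2.87%). DESeq2 and limma-voom likewise called 1 member each. An unadjusted edgeR p under 0.05 was found for 11 members, or 20.4%, beside 21.1% of all genes. The fitted change was positive in 27 and negative in 27, with a median of -0.0034 beside -0.0044 over all genes, and the median size of the change was 0.16 beside 0.15. Groups did not overlap in 26 members, or 48.1%, beside 51.6% of all genes. In these respects the members were near the background. Without aged replicate 1 the share of members called was 14.8%, beside 8.45% of all genes, and without young replicate 1 it was 0, beside 1.6%.

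**Figure D2:**
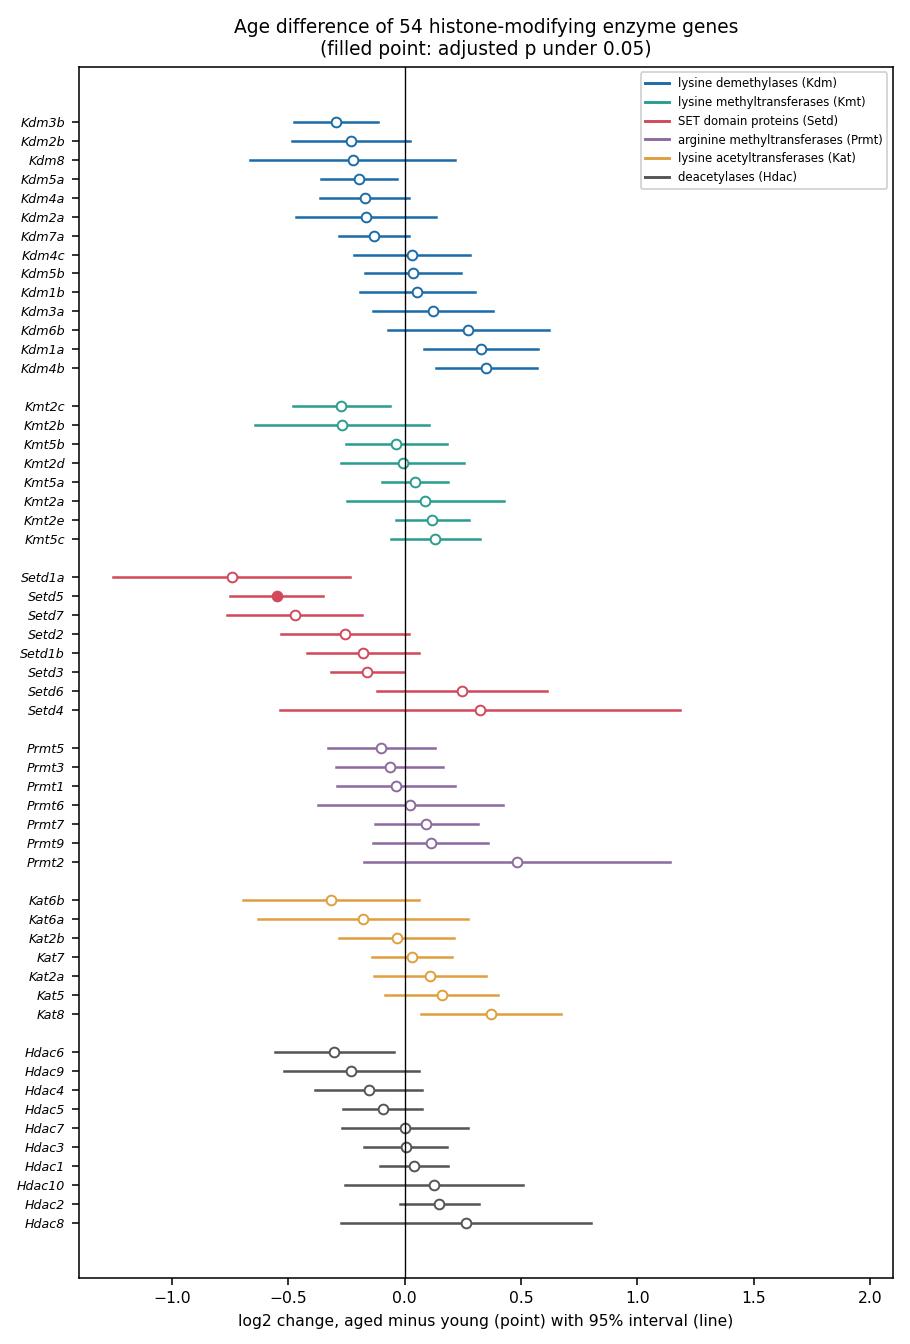
Log2 change of aged over young (points) with its 95% interval (lines) for the 54 tested members, ordered by change within each family, with 1 filled point where the adjusted p was under 0.05. Setd5 is the filled point, and the intervals of most other members cross or come near 0.

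The precision of these values limits what could be seen. The standard errors ran from 0.064 to 0.39 on the log2 scale with a median of 0.11, beside 0.12 over all genes tested. Of the 53 members that were not called, 41 had a 95% interval of the change that lay within 1.5-fold in both directions. For the other 12, Hdac8, Kat6a, Kat6b, Kat8, Kdm6b, Kdm8, Kmt2b, Prmt2, Setd1a, Setd4, Setd6 and Setd7, a change beyond 1.5-fold lay inside the interval. The intervals are not adjusted for the number of genes.

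Among the SET domain genes, Setd5 fell. SETD5 is a large protein of the family that binds the HDAC3 and PAF1 complexes, and its loss is a known cause of intellectual disability. Setd5 (ENSMUSG00000034269.12; chromosome 6, 113077365 to 113153435, GRCm38) stood at 41.7 and 37.1 CPM at 18 months and 58.5 and 56.9 CPM at 3 months. Both aged libraries lay below both young ones, with means of 39.4 ± 3.24 and 57.7 ± 1.13 CPM (SD, n = 2 per group). The log2 change was -0.55 ± 0.090 (edgeR adjusted p = 0.00661), 1.46-fold more in young monocytes, with a 95% interval of -0.75 to -0.35. Without young replicate 1, the deepest library, it did not pass (-0.53, adjusted p = 0.0603), and with each of the other libraries left out it did.

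In the other 7 Setd genes the groups did not overlap either, with aged below young in Setd1a, Setd7, Setd2, Setd1b and Setd3 and above in Setd4 and Setd6, but none of the 7 passed. Over all genes tested, aged lay below young without overlap in 25.7% and above in 25.9%. The median change of the 8 was -0.22, 4 had an unadjusted p under 0.05, and DESeq2 and limma-voom each called 1 of them. Setd7, a lysine methyltransferase with many targets besides histone H3, stood at 11.4 and 13.0 CPM at 18 months and 16.9 and 16.9 CPM at 3 months (-0.47 ± 0.13, edgeR adjusted p = 0.0636). Its young libraries were nearly equal and its aged ones both lower. Setd1a, a catalytic subunit of COMPASS, is named here after its values were seen, for the lowest change of any member. It stood at 3.91 and 3.04 CPM against 6.28 and 5.32 CPM (-0.74 ± 0.23, edgeR adjusted p = 0.0918), from 66 to 217 counts per library. In the annotation 51.8% of its exon bases are shared with Gm49388 on the same strand, which had 0 counts in all libraries, and how the counting treated reads from the shared part is not given in the sources used here. Setd2, the methyltransferase of lysine on histone H3 along transcribed genes, stood at 52.9 and 39.3 CPM against 55.1 and 55.1 CPM (-0.26 ± 0.12, edgeR adjusted p = 0.267). Without aged replicate 1 the change was -0.94 in Setd1a and -0.49 in Setd2. Without aged replicate 2 it was -0.58 in Setd1a and -0.061 in Setd2. The aged libraries of Setd2 differed by 1.35 times and the higher one came close to the young level. Setd3 stood at 90.6 and 96.0 against 103 and 106 CPM (-0.16 ± 0.071, edgeR adjusted p = 0.228), and Setd6, which methylates the NF-kB subunit RelA, at 10.5 and 11.5 against 10.2 and 8.18 CPM (0.25 ± 0.16, edgeR adjusted p = 0.428).

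**Figure D3:**
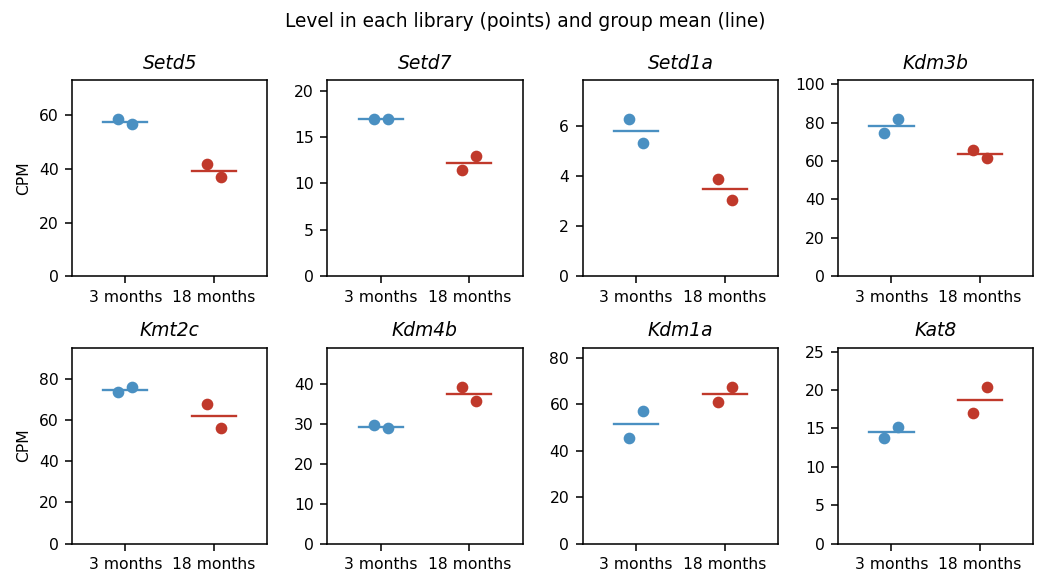
CPM of 8 members with low p values in each library (points) and the group mean (lines), young on the left and aged on the right, each axis starting at 0. In all 8 the 2 aged points lie on one side of the 2 young points, lower in Setd5, Setd7, Setd1a, Kdm3b and Kmt2c and higher in Kdm4b, Kdm1a and Kat8. These 8 have the smallest p of the tested members, a choice that favours such separation, and among them only Setd5 passed the test. Over all genes tested, the groups did not overlap in 51.6%.

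None of the 14 tested lysine demethylases was called by edgeR, DESeq2 or limma-voom. The unadjusted edgeR p of 4 was under 0.05 (28.6%, beside 21.1% of all genes tested). Their median change was -0.049, with 7 positive and 7 negative. Kdm4b, an eraser of the heterochromatin mark on histone H3, stood at 39.3 and 35.7 CPM at 18 months and 29.8 and 28.9 CPM at 3 months (0.35 ± 0.097, edgeR adjusted p = 0.0628). Kdm1a, the flavin-dependent demethylase LSD1 of the CoREST complex, stood at 61.0 and 67.4 against 45.5 and 57.0 CPM (0.33 ± 0.11, edgeR adjusted p = 0.115). Both had higher aged than young libraries without overlap. For Kdm1a the change ran from 0.17 to 0.49 with each library left out. Kdm3b went the other way, at 65.5 and 61.7 against 74.5 and 81.6 CPM (-0.29 ± 0.081, edgeR adjusted p = 0.0628). Its product, too, is a demethylase of histone H3. In the annotation 24.6% of the Kdm3b exon bases are shared with Gm26538 on the other strand, which had 0 counts in all libraries. Kdm5a, an eraser of the promoter mark that the COMPASS enzymes write, stood at 83.7 and 79.3 against 91.4 and 95.4 CPM (-0.20 ± 0.073, edgeR adjusted p = 0.154). Kdm7a, the most abundant of the family, stood at 311 and 273 against 318 and 322 CPM (-0.13 ± 0.068, edgeR adjusted p = 0.306). Paralogs thus lay on either side of 0, Kdm3b and Kdm3a (0.12 ± 0.12) and Kdm4a (-0.17 ± 0.087) and Kdm4b among them, and these differences between paralogs were not tested. The other 6 demethylases, Kdm1b, Kdm2a, Kdm2b, Kdm4c, Kdm5b and Kdm8, had changes from -0.23 in Kdm2b to 0.055 in Kdm1b, and of these only Kdm2b had groups that did not overlap. Without aged replicate 1 the change was -0.34 in Kdm3b, -0.23 in Kdm7a and 0.065 in Kdm2a. Without aged replicate 2 it was -0.25 in Kdm3b, -0.042 in Kdm7a and -0.43 in Kdm2a. The sign of Kdm2a thus depended on which aged library was kept.

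Kdm6b, the inducible eraser of the Polycomb mark, was low and overlapped between ages. It stood at 14.5 and 17.0 CPM at 18 months and 11.5 and 14.7 CPM at 3 months (0.27 ± 0.16, edgeR adjusted p = 0.346). The 95% interval of its change was -0.07 to 0.62. The immediate early genes, as given above, were summed at 2100 and 2150 CPM in the same aged libraries against 1040 and 1000 CPM. Any relation between those genes and Kdm6b was not tested.

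None of the 8 Kmt genes was called by edgeR, DESeq2 or limma-voom. The unadjusted edgeR p of 1 was under 0.05 (12.5%, beside 21.1% of all genes tested). Their median change was 0.018, with 4 positive and 4 negative. Kmt2c, an enhancer methyltransferase of the COMPASS type, had that p. It stood at 67.6 and 56.2 CPM at 18 months and 73.5 and 76.1 CPM at 3 months (-0.27 ± 0.095, edgeR adjusted p = 0.132). The change of Kmt2c was -0.41 without aged replicate 1 and -0.15 without aged replicate 2. Its close paralog Kmt2d overlapped between ages, at 85.8 and 112 against 91.8 and 107 CPM (-0.0078 ± 0.12, edgeR adjusted p = 0.979). Kmt2e, a family member known for binding rather than writing the promoter mark, stood at 153 and 138 against 133 and 134 CPM (0.12 ± 0.070, edgeR adjusted p = 0.361). Over the 6 COMPASS methyltransferases Kmt2a, Kmt2b, Kmt2c, Kmt2d, Setd1a and Setd1b the median was -0.22, with 5 negative. Kmt2d turned above 0 in some alternatives, to 0.10 with GC and length offsets, and Kmt2a below 0 without aged replicate 1 (-0.16). Their median exon length was 14370 bases, beside 4326 over all genes tested. Of the 6, 0 were called by edgeR, DESeq2 or limma-voom. An unadjusted edgeR p under 0.05 was found for 2 (33.3%, beside 21.1% of all genes tested). The 3 enzymes of histone H4 overlapped between ages. Kmt5a stood at 216 and 236 against 216 and 223 CPM (0.044 ± 0.064, edgeR adjusted p = 0.74), a 95% interval of -0.10 to 0.19. Kmt5c, which adds the further methyl groups, stood at 64.6 and 70.5 against 58.7 and 64.6 CPM (0.13 ± 0.086, edgeR adjusted p = 0.415). Kmt2a (0.089 ± 0.15), Kmt2b (-0.27 ± 0.17) and Kmt5b (-0.035 ± 0.098) overlapped between ages too.

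Among 7 tested arginine methyltransferases 0 were called by edgeR, DESeq2 or limma-voom. An unadjusted edgeR p under 0.05 was found for 0 of them, beside 21.1% of all genes tested. The median change was 0.025. Prmt1 stood at 51.7 and 66.4 CPM at 18 months and 57.6 and 63.6 CPM at 3 months (-0.037 ± 0.11, edgeR adjusted p = 0.892), so that the aged libraries lay outside the young ones on both sides. Prmt5, the main symmetric methyltransferase, stood at 29.4 and 33.5 against 34.7 and 32.6 CPM (-0.099 ± 0.10, edgeR adjusted p = 0.632). Prmt9 stood at 25 and 22.1 against 21.5 and 22.1 CPM (0.11 ± 0.11, edgeR adjusted p = 0.612). Prmt2 had the highest fitted change of any member (0.48 ± 0.30, edgeR adjusted p = 0.386) but only 41 to 107 counts per library, at 3.19 and 4.19 against 3.10 and 2.06 CPM. Prmt3 (-0.063 ± 0.10), Prmt6 (0.025 ± 0.18) and Prmt7 (0.094 ± 0.10) had fitted changes smaller than their standard errors.

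The 7 acetyltransferases had a median change of 0.032, with 4 positive and 3 negative. None was called by edgeR, DESeq2 or limma-voom. Only 1, Kat8, had an unadjusted edgeR p under 0.05 (14.3%, beside 21.1% of all genes tested). Kat8, the MYST enzyme that acetylates histone H4, stood at 17.0 and 20.4 CPM at 18 months and 13.8 and 15.2 CPM at 3 months (0.37 ± 0.14, edgeR adjusted p = 0.147). Both aged libraries were the higher ones, and the change of Kat8 was 0.50 without aged replicate 1 and 0.23 without aged replicate 2. Kat6b, a MYST acetyltransferase of histone H3, was low, at 8.45 and 7.04 against 9.20 and 10.2 CPM (-0.32 ± 0.17, edgeR adjusted p = 0.32). Its paralog Kat6a could not be judged, since its young libraries stood at 52.9 and 30.5 CPM, 1.73 times apart, on either side of the aged ones at 41.0 and 33.4 CPM (-0.18 ± 0.20, edgeR adjusted p = 0.664). No other tested member differed as much between libraries of a group. The change of Kat6a was -0.51 without young replicate 2 and 0.29 without young replicate 1, so its sign depended on which young library was kept. Kat7 overlapped between ages, at 153 and 136 against 148 and 135 CPM (0.032 ± 0.077, edgeR adjusted p = 0.858), and so did Kat2a, the acetyltransferase of the SAGA complex, at 39.6 and 48.6 against 39.6 and 42.2 CPM (0.11 ± 0.11, edgeR adjusted p = 0.614). Kat2b (-0.033 ± 0.11) overlapped as well, and Kat5, the MYST enzyme TIP60, had aged libraries above young ones (0.16 ± 0.11), with 12.1% of its exon bases shared with Rnaseh2c on the other strand.

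Of the 10 tested deacetylases 0 were called by edgeR, DESeq2 or limma-voom, 1 had an unadjusted edgeR p under 0.05, and the median change was 0.0029. The class I enzymes, which sit in the nucleus, had a median of 0.096 and 4 of 4 fitted changes above 0, of which Hdac1 (-0.014) and Hdac3 (-0.039) turned below 0 with GC and length offsets. Hdac3 also turned without aged replicate 1 (-0.0001) and without young replicate 1 (-0.043), and Hdac8 without aged replicate 2 (-0.0023). Hdac1 stood at 123 and 129 CPM at 18 months and 120 and 125 CPM at 3 months (0.041 ± 0.066, edgeR adjusted p = 0.77), with a 95% interval of -0.11 to 0.19. Hdac3, the catalytic subunit of a nuclear corepressor complex, stood at 57.6 and 57.1 against 55.3 and 59.2 CPM (0.0047 ± 0.081, edgeR adjusted p = 0.982), with the aged libraries between the young ones. Hdac2 stood at 67.2 and 65.2 against 59.7 and 59.8 CPM (0.15 ± 0.077, edgeR adjusted p = 0.293). The class IIa enzymes, which shuttle between nucleus and cytoplasm, had a median of -0.12 with 3 of 4 negative and a median exon length of 11720 bases, beside 4264 for class I. The difference between the classes was not tested. The most abundant of class IIa, Hdac5, stood at 115 and 131 against 129 and 134 CPM (-0.094 ± 0.076, edgeR adjusted p = 0.527). Hdac6, the class IIb enzyme that deacetylates tubulin, stood at 16.7 and 16.2 against 19.9 and 20.7 CPM (-0.30 ± 0.12, edgeR adjusted p = 0.163). Its aged libraries lay below its young ones. Hdac4, Hdac7, Hdac8, Hdac9 and Hdac10 had changes from -0.23 in Hdac9 to 0.26 in Hdac8. Over all families, 22 of the 54 tested members share exon bases with another gene in the annotation, 17 of them with a gene in the tables. The libraries were strand-specific, but the strand setting of the counting is not given in the sources used here.

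Long transcripts among the members leaned lower in aged monocytes than short ones. The tested members are long, with a median of 6016 exon bases beside 4326 over all genes tested. Of 18 members with at least 10 kb of exon, a limit chosen after the values were seen, 15 had a negative change (83.3%, beside 67.8% of the 1106 such genes tested), with a median of -0.19 beside -0.10. In 11 of the 18 the aged libraries lay below the young ones without overlap (61.1%, beside 36.5%). Of the 36 shorter members 12 had a negative change (33.3%, beside 48.9%), with a median of 0.043 beside 0.0061. Across the 54 members the change and the exon length had a Spearman's rho of -0.57 and a Pearson's r of -0.52 with log2 length, against -0.12 and -0.083 across 11910 tested genes. These are correlations across genes that share the same 4 libraries and that are not independent. With each library's trends on GC content and exon length removed, the median of the 18 long members was -0.091, beside 0.010 for all such genes, and rho over the members was -0.33, beside 0.031 across all genes. Setd5, with 18347 exon bases, kept its call there (-0.42, adjusted p = 0.0115), while Kmt2c moved from -0.27 to -0.14 and Kdm3b from -0.29 to -0.21.

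**Figure D4:**
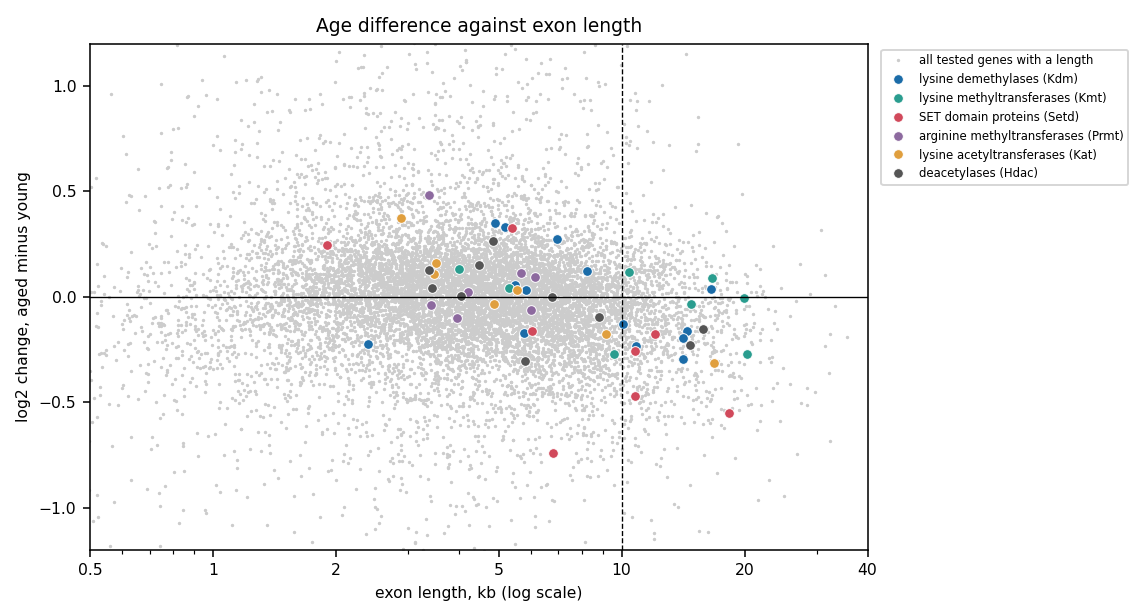
Log2 change of aged over young against exon length in kb (log scale) for the tested members, coloured by family, over all tested genes with a length in grey; genes beyond the axis ends are not drawn, and the dashed line marks 10 kb. Of the 18 members right of the line 15 lie below 0, and of the 36 left of it 12 do.

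The promoter windows of the members were close in base content to those of all tested genes. RefSeq promoter windows on GRCm38, 250 bases before to 50 after an annotated start, were matched by symbol for 42 of the 54 tested members, with 60 windows. Their median number of CpG dinucleotides was 21.5 per window, beside 20 in 11861 windows of tested genes and 7 in all 32851 windows. A GC box (GGGCGG, both strands) was found in 60% of the members' windows, beside 61.1% for tested genes and 35.7% of all windows, and the letters TATAAA (both strands) in 5% beside 7.03% and 13.6%. The letters CCAAT (both strands) were in 43.3% beside 38.1% and 37.4%, and CGGAAG (both strands) in 28.3% beside 31.2% and 16.9%. The windows of Kmt2c and Kdm1a are shown as examples of members with a fitted change on either side of 0, neither of which passed the test, and with a window at the start of the gene in the annotation. The 1 window listed for Setd5 lies inside the gene, holds 1 CpG with 39.7% G and C and none of the motifs searched, and is not shown. Both are on the minus strand, chr5:25498734-25499033 and chr4:136602674-136602973, and are printed 5′ to 3′ with each CpG in capitals.
Kmt2c: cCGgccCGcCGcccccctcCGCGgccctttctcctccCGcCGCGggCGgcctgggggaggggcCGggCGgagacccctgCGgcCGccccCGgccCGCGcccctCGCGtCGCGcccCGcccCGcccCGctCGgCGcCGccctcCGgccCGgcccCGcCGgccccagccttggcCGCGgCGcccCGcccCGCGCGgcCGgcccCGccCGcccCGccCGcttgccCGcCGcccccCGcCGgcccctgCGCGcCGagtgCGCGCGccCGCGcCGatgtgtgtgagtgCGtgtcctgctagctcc
Kdm1a: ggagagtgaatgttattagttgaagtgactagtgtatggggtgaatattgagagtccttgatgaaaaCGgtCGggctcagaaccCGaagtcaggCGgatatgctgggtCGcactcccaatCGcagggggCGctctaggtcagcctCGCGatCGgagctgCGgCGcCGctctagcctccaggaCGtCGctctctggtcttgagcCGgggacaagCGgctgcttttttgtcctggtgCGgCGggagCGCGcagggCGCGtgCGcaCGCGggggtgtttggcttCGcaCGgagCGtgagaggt
The first holds 56 CpG with 88% G and C, and the second 29 with 61.3%. The median was 61% G and C over the members' windows and 60.3% over those of all tested genes. The Kmt2c window has the highest G and C content among the members' windows, so it is not typical of them. Whether base content goes with the direction of change was not tested.

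Genes whose products work with these enzymes were counted in the same way. Of 100 tested partners (other writers and erasers, and subunits of the Polycomb, COMPASS, deacetylase and acetyltransferase complexes, and bromodomain readers) 2 rose and 5 fell, 7% beside 5.77% of all genes, with a median change of -0.014. Tbl1xr1, a subunit of a corepressor complex with HDAC3, stood at 201 and 189 CPM at 18 months and 288 and 259 CPM at 3 months and fell (-0.49 ± 0.069, edgeR adjusted p = 0.00282). Ep300, the acetyltransferase of enhancers, stood at 150 and 151 against 191 and 208 CPM and fell (-0.40 ± 0.065, edgeR adjusted p = 0.00576), while its paralog Crebbp stood at 84.1 and 105 against 99.8 and 129 CPM (-0.27 ± 0.13, edgeR adjusted p = 0.258). Msl2 (-0.34 ± 0.073, edgeR adjusted p = 0.0261) and Ing5 (-0.44 ± 0.099, edgeR adjusted p = 0.0289), which serve in acetyltransferase complexes of the MYST type, fell as well. The rises were those of Chd3, a remodeller of the NuRD deacetylase complex, from a low level (5.38 and 4.83 against 1.94 and 1.71 CPM, 1.47 ± 0.26, edgeR adjusted p = 0.00906), and of the dioxygenase gene Jmjd6 (22.3 and 22.2 against 15.4 and 16.1 CPM, 0.50 ± 0.11, edgeR adjusted p = 0.0297). None of the 7 Polycomb complex subunits was called by edgeR, DESeq2 or limma-voom. An unadjusted edgeR p under 0.05 was found for 0 of them, beside 21.1% of all genes tested. Without young replicate 1 Ep300 and Tbl1xr1 passed among the partners named here, and Msl2, Ing5, Chd3 and Jmjd6 did not. Msl2, Ing5 and Jmjd6 also missed the threshold without aged replicate 2 and without young replicate 2 (edgeR adjusted p 0.0527 to 0.0862).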

How the data were processed

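Monocyte RNA was enriched with oligo-dT and made into strand-specific libraries, per the labels' protocols. The authors deposited raw counts per gene for each of the 4 libraries. Per the submitters' processing notes, the mm10 build and the tools STAR 2.5.3, cutadapt, DESeq2 and HTSeq were used, with no roles given. The annotation and strand setting of the counting were not stated. The count tables were tested with edgeR 4.0.16 in R 4.3.3: filterByExpr (minimum count 10, minimum total 15), TMM scaling, and the quasi-likelihood test of aged against young without a block, with Benjamini-Hochberg adjustment over all 12035 genes. CPM use TMM-scaled library sizes, and lengths are exon unions of GENCODE M21 on GRCm38. Alternatives were other scalings and filters, DESeq2 1.42.0, limma 3.58.1 (voom), GC and length offsets, a replicate block and each library left out. Counts were also simulated with a spread set by the level of a gene alone, without trends on GC content or exon length. On these the test recovered 29 of 50 genes changed 1.5-fold and 42 of 50 changed 2-fold, with 4 false calls among 11991 genes. Measured genes can differ in spread at the same level, so these rates may not carry over to them. The members and lists were chosen with earlier results of these data known. The rule named every member called, in each family the 2 members with the smallest p and the 2 most abundant per length, the members not tested, and up to 5 called partners per direction. Other members were named after their values were seen. 1 called partner is not reported here.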

Additional observations from a re-analysis of the deposited data

How the results depend on the processing

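Setd5 kept its direction in all alternatives run, and its call in all but the fit without young replicate 1. Of 24 members named by rule, 19 kept their sign throughout. Without the filter on low counts 606 genes were called higher and 793 lower, with 2 members higher and 5 lower (3 Kdm, 1 Kmt, 3 Setd; 12.3% of 57 tested, beside 8.08% of 17314 genes) and 12 partners. Same-numbered libraries correlated at r = 0.0937 in their deviations, with only 2 pairs, so the numbers were not taken to pair them. With the replicate block 801 genes were called higher and 1016 lower, with 3 members higher and 6 lower (3 Kdm, 1 Kmt, 4 Setd, 1 Kat; 16.7% of 54, beside 15.1% of 12035 genes) and 23 partners. With each library left out, genes called higher ran from 116 to 452 and lower from 81 to 588, members higher from 0 to 2 and lower from 0 to 6, and partners from 2 to 14. The share of members called was 14.8% without aged replicate 1, 3.7% without aged replicate 2, 0 without young replicate 1 and 5.56% without young replicate 2, beside 8.45%, 5.15%, 1.6% and 3.7% of all genes. By family these fits called 0 to 3 Kdm, 0 to 1 Kmt, 0 to 3 Setd and 0 to 1 Kat. The medians in these fits were -0.0458 to 0.0090 for all members, -0.0629 to 0.0401 for Kdm, -0.0139 to 0.0704 for Kmt, -0.2520 to -0.2182 for Setd, 0.0029 to 0.0559 for Prmt, -0.0449 to 0.1028 for Kat, -0.0926 to 0.0390 for Hdac and -0.0298 to -0.0294 for the partners, which stood at -0.0013 with upper-quartile scaling. With GC and length offsets the medians were 0.0199 for Kdm, 0.0681 for Kmt, -0.1593 for Setd and -0.0196 for Prmt. The sign turned for Hdac1 with those offsets (-0.0140), Kat2a (-0.0449) and Kmt5a (-0.0238) without aged replicate 2, Kat7 (-0.0531) and Prmt1 (0.1346) without aged replicate 1, and Kat7 (-0.0344) and Prmt1 (0.0324) without young replicate 2. Over the libraries left out, Kat2a ran from -0.0449 to 0.2511, Kat7 from -0.0531 to 0.1081, Kmt5a from -0.0238 to 0.1079 and Prmt1 from -0.2281 to 0.1346. The cause was not tested. With 2 libraries a group, changes under about 1.5-fold were often not detectable.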
